A study of Rattus norvegicus with 11 samples.

Results

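The Kv4 channel complex was followed through 9 genes, chosen by symbol from the 16811 genes of the deposited table: the pore genes Kcnd1, Kcnd2 and Kcnd3, the KChIP genes Kcnip1, Kcnip2, Kcnip3 and Kcnip4, and the dipeptidyl peptidase-like genes Dpp6 and Dpp10. RNA came from dorsal root ganglia of Sprague-Dawley rats, the swellings beside the spinal cord in which sensory neurons have their somata. The 3 groups were left ganglia after spinal nerve ligation followed by the drug UNC0638 (SNL plus UNC0638, n = 3), left ganglia after ligation alone (SNL, n = 4), and right ganglia of sham-operated rats, labelled as control (Sham, n = 4). UNC0638 inhibits the histone methyltransferases G9a and GLP, and ligation of a spinal nerve is a model of neuropathic pain. Ligated and Sham ganglia also came from opposite sides, and no group received UNC0638 without ligation. Age, sex, dose and time are unstated in the labels. The design text counts as many rats as libraries in each group but does not say that each library is 1 rat, and p-values measure only how these libraries vary.

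Kv4 channels carry the A-type potassium current, which activates below the firing threshold, inactivates fast and delays the return to threshold between action potentials. A channel has a tetramer of pore subunits, Kv4.1 (Kcnd1), Kv4.2 (Kcnd2) or Kv4.3 (Kcnd3). KChIPs are cytosolic calcium-binding proteins that clamp the N-termini of the pore subunits, bring channels to the surface and slow their inactivation. DPP6 and DPP10 are single-pass membrane proteins without peptidase activity that speed the gating of Kv4 channels. In rodent sensory ganglia, Kv4.3 is known from small, non-peptidergic nociceptors and Kv4.1 from neurons of many sizes.

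The start regions of the members were taken from RefSeq, since the title of the series concerns epigenetic silencing of potassium channel genes. CG dinucleotides are the sites of DNA methylation in mammals. The table of start regions, on build GRCr8, held 9 windows for 7 members, each with 250 bases before and 50 bases after an annotated start. It held none for Kcnd1 and Kcnip4. Shown are windows of 3 members that differed in their response: Kcnd3 and Dpp10 differed most between the groups among the pore and the DPP genes, and Kcnip1 differed least with UNC0638. Capitals mark CG dinucleotides.
Kcnd3, chr2:195626066-195626365, plus strand: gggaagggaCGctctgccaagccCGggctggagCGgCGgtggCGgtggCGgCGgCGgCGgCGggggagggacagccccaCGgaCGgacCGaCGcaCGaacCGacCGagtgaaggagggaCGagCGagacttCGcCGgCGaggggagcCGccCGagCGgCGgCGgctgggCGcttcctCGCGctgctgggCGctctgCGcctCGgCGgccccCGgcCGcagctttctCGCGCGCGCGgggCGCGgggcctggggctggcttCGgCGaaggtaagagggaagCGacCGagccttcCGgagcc
Dpp10, chr13:37966166-37966465, minus strand: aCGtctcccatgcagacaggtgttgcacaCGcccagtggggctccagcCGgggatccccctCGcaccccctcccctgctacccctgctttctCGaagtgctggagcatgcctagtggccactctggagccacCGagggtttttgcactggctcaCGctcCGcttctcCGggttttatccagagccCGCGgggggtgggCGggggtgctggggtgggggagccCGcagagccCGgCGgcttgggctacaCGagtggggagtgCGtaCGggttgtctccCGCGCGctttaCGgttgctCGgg
Kcnip1, chr10:19092976-19093275, minus strand: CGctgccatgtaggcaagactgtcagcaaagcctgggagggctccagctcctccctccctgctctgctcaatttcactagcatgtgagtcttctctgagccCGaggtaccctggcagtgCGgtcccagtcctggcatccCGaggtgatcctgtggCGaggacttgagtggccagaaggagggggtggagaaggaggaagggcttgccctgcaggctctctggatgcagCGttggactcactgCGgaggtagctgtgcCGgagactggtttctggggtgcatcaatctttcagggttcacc
The Kcnd3 window held 48 CG dinucleotides, more than 99.0% of the 33469 windows in the table, whose median was 7. The Dpp10 window held 23 and the Kcnip1 window 8. A second annotated start of Dpp10 had 5 and a second start of Kcnip1 had 15. The other windows held 23 (Kcnd2), 18 (Dpp6), 13 (Kcnip2) and 8 (Kcnip3). Of motifs searched on both strands, the GC box GGGCGG was in 6 of the 9 windows and in 33.1% of all windows. The 9 windows were also richer in G and C, at 52.3% to 77.7%, against a median of 51.7% over all windows. The E-box CANNTG was in 7 of the 9 windows and in 72.1% of all windows. The cyclic AMP response element TGACGTCA (1.83% of all windows), the AP-1 motif TGANTCA (7.33%) and the left part of the RE1 element, TTCAGCACC (0.356%), were in 0 of the 9. These letters describe the windows. No binding or methylation was measured here.

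The deposited values, called scaled counts here, are, as far as their steps show, counts per gene that the authors brought to a similar library size. They summed to between 9450045 and 11347920 in a library, and the reads they stand for were estimated at 6127802 to 24367066. A gene was tested where its scaled count was at least 10 in at least 3 libraries, which 12087 genes met, all 9 members among them. Scaled counts are not divided by gene length, so that levels are compared between groups for a gene and not between genes. SNL replicate 3 was the highest of its group for 9 of 9 members. SNL plus UNC0638 replicate 1 was the highest of its group for 9 of 9. In SNL plus UNC0638 replicate 1 the injury gene Atf3 stood at 265, against 1802 and 2393 in replicates 2 and 3. The 9 skeletal muscle genes of a marker list that are in no other list summed to 76646 in it, against 168 and 246 in the other SNL plus UNC0638 libraries, 148 to 539.9 in SNL and 174 to 204 in Sham. Calls of the members that involve SNL plus UNC0638 are also given without replicate 1, as are counts over gene lists where they changed.

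**Figure D1:**
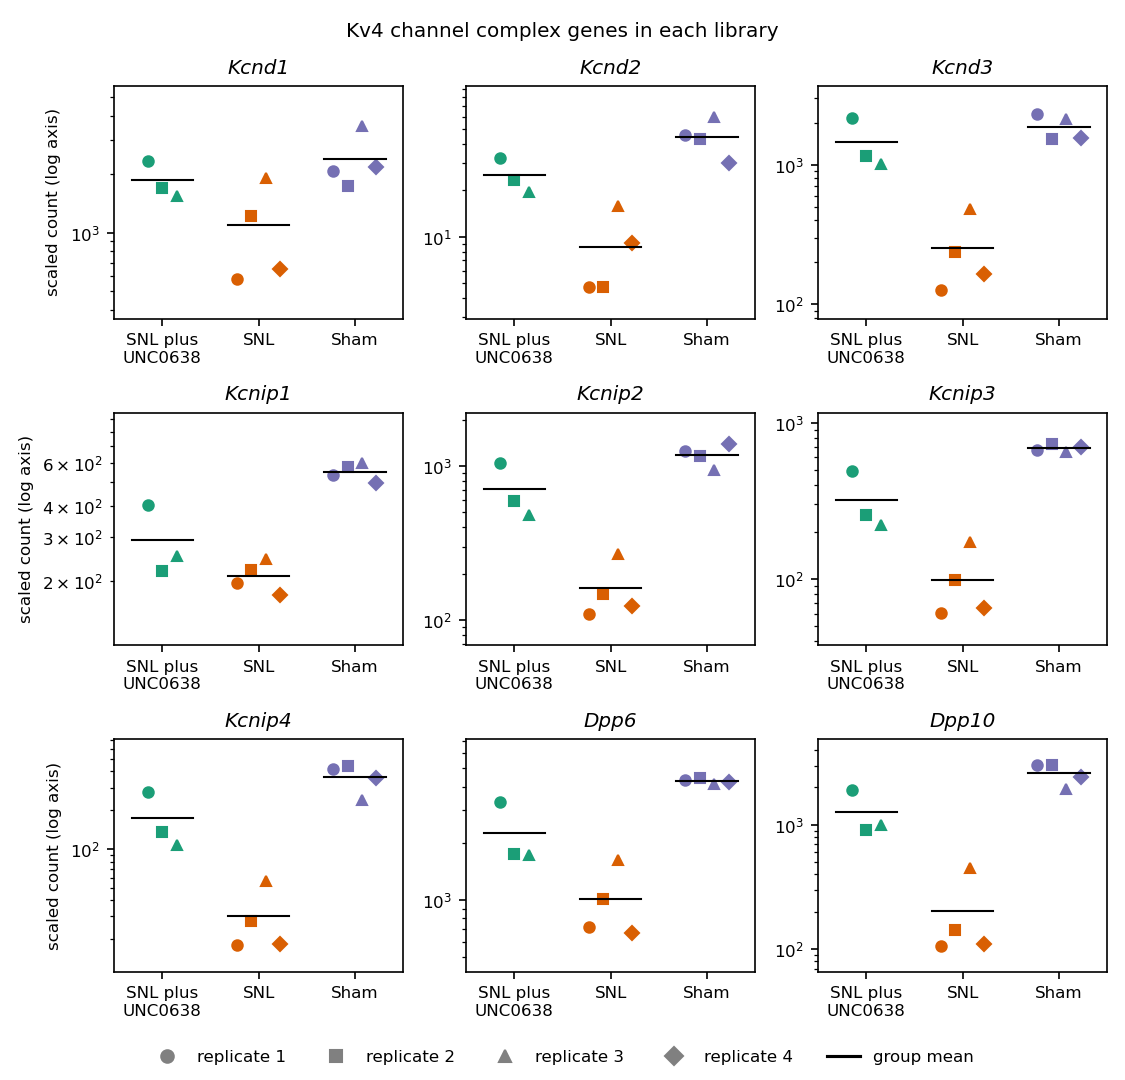
Scaled counts (log axis) of the 9 Kv4 complex genes in SNL plus UNC0638, SNL and Sham libraries, with a symbol per replicate and a line at the group mean. SNL libraries are lowest on average for each gene, with SNL replicate 3 above the other SNL libraries. For Kcnip1 the SNL plus UNC0638 replicates 2 and 3 (219.7 and 253) lie at the level of SNL (176 to 244).

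Ligation alone was set against Sham to show how the Kv4 complex stood after nerve injury. The RNA of each pore, KChIP and DPP gene was lower in SNL. The test across genes called 9 of 9 members lower and 0 higher, where 23.4% of all tested genes were called lower, 24.8% higher and 48.2% in either direction. The groups did not overlap for 8 of the 9 members, all lower, where 21.2% of the tested genes were lower and 22.1% higher without overlap. The median log2 fold change of the members was -2.91, and that of the 12087 tested genes was -0.0033. In whole tissue, fewer cells of a type and less RNA per cell cannot be told apart.

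Among the pore genes, the difference was greatest for Kcnd3. Its scaled counts were 126, 238, 485 and 165 in SNL replicates 1 to 4, against 2300, 1538, 2146 and 1550.2 in Sham replicates 1 to 4. The highest SNL library thus held less than 1 in 3 of the lowest Sham library. The means were 254 ± 161 in SNL and 1883 ± 397 in Sham (SD, n = 4 each), a log2 fold change of -3.06 (SE 0.37, adjusted p = 0.000139, limma with Benjamini-Hochberg adjustment). Of the tested genes, 100 had a lower log2 fold change than Kcnd3.

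Kcnd2, which encodes the main Kv4 pore subunit of central dendrites, was sparsely covered, with 5 to 39 estimated reads per library. It stood at 4.70, 4.72, 15.8 and 9.12 in SNL, against 45.9, 43.2, 59.2 and 29.97 in Sham. The groups did not overlap, and the log2 fold change was -2.36 (SE 0.37, adjusted p = 0.000445). At values this low the added 1 of the log scale understates the difference. In 3 of 4 SNL libraries Kcnd2 lay under the value of 10 used for the filter, and it was tested because of the other groups.

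Kcnd1 had the smallest difference of the 9. It stood at 576, 1219, 1907 and 651 in SNL, against 2071, 1744, 3565 and 2181 in Sham. SNL replicate 3 lay above the lowest Sham library, so that the groups overlapped. The log2 fold change was -1.25 (SE 0.35, adjusted p = 0.0121). Replicate 3 was the highest library of its group in both SNL and Sham. Without SNL replicate 3 the log2 fold change was -1.58.

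The KChIP genes split into 1 moderate and 3 large differences. Kcnip4 had the lowest log2 fold change of the KChIPs. Its product in 1 splice form keeps Kv4 channels from inactivating fast. It stood at 17.9, 27.9, 56.3 and 18.2 in SNL, against 416, 444, 239.96 and 353 in Sham. The SNL mean was 12.1-fold lower (log2 fold change -3.67, SE 0.38, adjusted p = 0.000102).

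Kcnip2, whose product is required for the transient outward current of the mouse heart, stood at 110.0, 147, 269.6 and 124 in SNL, against 1258, 1158, 941 and 1386 in Sham (log2 fold change -2.94, SE 0.29, adjusted p = 9.95e-05). Kcnip3 encodes a KChIP that is also known as DREAM, a calcium-dependent repressor of the prodynorphin gene, and as calsenilin. It stood at 60.2, 98.6, 173 and 64.8 in SNL, against 665, 726, 653 and 700.2 in Sham (log2 fold change -2.91, SE 0.32, adjusted p = 0.000109). The Sham libraries of Kcnip3 lay close together, with an SD of 4.86% of the mean, and the SNL libraries did not, with 52.5%.

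Kcnip1 was the KChIP with the smallest difference. It stood at 196, 222, 244 and 176 in SNL, against 533, 578, 597 and 494 in Sham. The groups did not overlap, and the SNL mean was 2.63-fold lower (log2 fold change -1.40, SE 0.18, adjusted p = 0.000167). SNL replicate 3 was the highest SNL library here too, though by little, and the SNL libraries had an SD of 14.2% of the mean.

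Both DPP genes were lower. Dpp10 had the lowest log2 fold change of the 9, and 29 of the tested genes had a lower one. It stood at 105, 143, 451 and 110.4 in SNL, against 3052, 3028, 1927 and 2418 in Sham (log2 fold change -3.94, SE 0.41, adjusted p = 0.000102). SNL replicate 3 held over 3 times the next SNL library, and without it the log2 fold change was -4.42. Dpp6 stood at 722, 1011, 1642 and 668 in SNL, against 4322, 4456, 4139 and 4229 in Sham (log2 fold change -2.18, SE 0.27, adjusted p = 0.000159).

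**Figure D2:**
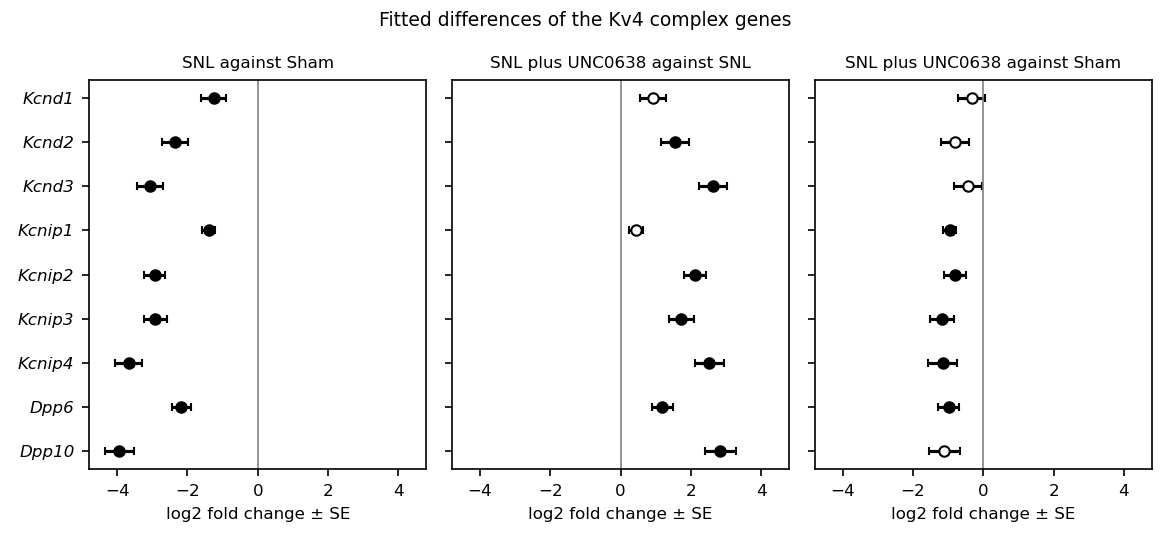
Log2 fold changes (points, with bars of 1 SE) of the 9 genes in 3 comparisons, from limma across all tested genes. Filled points passed an adjusted p of 0.05 and open points did not. All 9 are filled and below 0 for SNL against Sham, 7 are filled and above 0 for SNL plus UNC0638 against SNL, and 5 are filled and below 0 for SNL plus UNC0638 against Sham.

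Shares and ratios within the families give the fold changes above in another form and are no separate result. Kcnd1 and Kcnip1 had the smallest differences of the pore genes and of the KChIPs, so that higher shares in SNL follow. Shares are of scaled counts, so that longer genes weigh more, and they were compared between groups as a description, without a test. Kcnd1 made up 81.5%, 83.4%, 79.2% and 78.9% of the summed Kcnd genes in SNL, against 46.9%, 52.4%, 61.8% and 58.0% in Sham. In SNL plus UNC0638 its share was 51.5%, 58.9% and 60.03%. The SNL libraries, replicate 3 included, lay above all libraries of both other groups.

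Kcnip1 made up 51.0%, 44.8%, 32.9% and 45.95% of the summed KChIP genes in SNL, against 18.6%, 19.9%, 24.6% and 16.9% in Sham. In SNL plus UNC0638 its share was 18.3%, 18.3% and 23.8%. The SNL shares again did not overlap with those of the other groups. The ratio of Dpp10 to Dpp6 was 0.146, 0.141, 0.275 and 0.165 in SNL, against 0.706, 0.680, 0.466 and 0.572 in Sham. In SNL plus UNC0638 it was 0.573, 0.511 and 0.568, within the Sham range. The ratio of Kcnd2 to Kcnd3 did overlap, at 0.0198 to 0.0552 in SNL and 0.0193 to 0.0281 in Sham. It was 0.0148 to 0.0199 in SNL plus UNC0638.

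**Figure D3:**
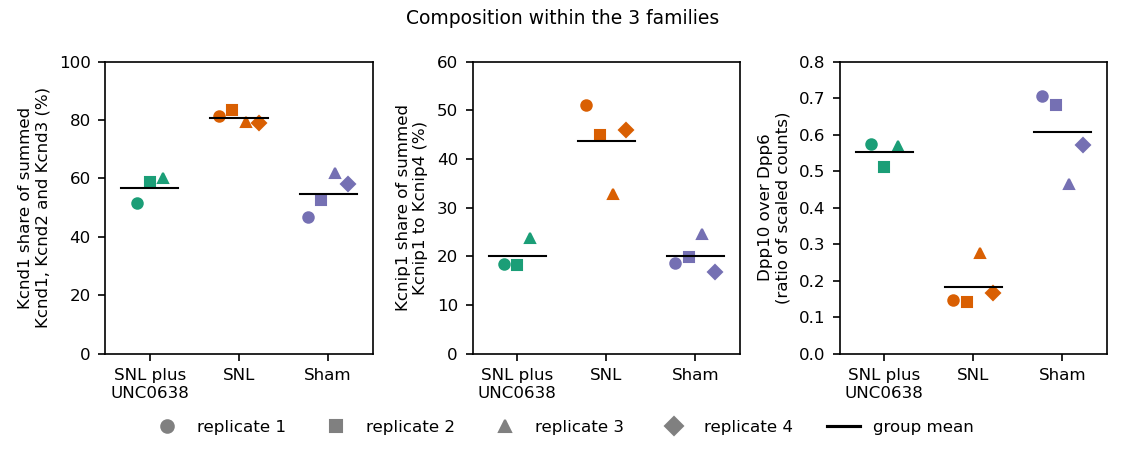
Share of Kcnd1 among the 3 Kcnd genes (%), share of Kcnip1 among the 4 KChIP genes (%) and ratio of Dpp10 to Dpp6, in each SNL plus UNC0638, SNL and Sham library (symbols for replicates, lines for group means). The SNL libraries stand apart from both other groups in each panel: Kcnd1 at 78.9% to 83.4%, Kcnip1 at 32.9% to 51.0%, and the ratio at 0.141 to 0.275. Kcnd1 and Kcnip1 had the smallest differences between SNL and Sham of the pore genes and of the KChIPs.

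The inhibitor was examined by setting SNL plus UNC0638 against SNL, since the title of the series ties G9a to the silencing of potassium channel genes. Higher levels with UNC0638 were called for 7 of the 9 genes and lower levels for 0, where 13.5% of all tested genes were called higher, 14.3% lower and 27.8% in either direction. The 7 were Kcnd2, Kcnd3, Kcnip2, Kcnip3, Kcnip4, Dpp6 and Dpp10. Each of them was higher in 3 of 3 SNL plus UNC0638 libraries than in any SNL library, as were 17.7% of the tested genes, and 19.9% were lower without overlap. The median log2 fold change was 1.73 over the members and 0.01 over all tested genes. Kcnd1 and Kcnip1 did not pass.

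Among the pore genes, Kcnd3 stood at 2180.3, 1167 and 1011 in SNL plus UNC0638 replicates 1 to 3, against 126 to 485 in SNL. Replicates 2 and 3 lay over 2 times above the highest SNL library and below the lowest Sham library. The SNL plus UNC0638 mean of 1453 ± 635 (SD, n = 3) was 5.73-fold higher than the SNL mean of 254 ± 161 (SD, n = 4). The log2 fold change was 2.62 (SE 0.40, adjusted p = 0.00143), and 2.29 without replicate 1 (adjusted p = 0.00615).

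Kcnd2 stood at 32.3, 23.2 and 19.3 in SNL plus UNC0638, against 4.70 to 15.8 in SNL (log2 fold change 1.56, SE 0.40, adjusted p = 0.0154). Its call was lost without SNL plus UNC0638 replicate 1 (log2 fold change 1.36, adjusted p = 0.0547), where 15 estimated reads stood behind each of the remaining values. Kcnd1 stood at 2345, 1703 and 1548 with UNC0638, against 576 to 1907 in SNL, and the groups overlapped through SNL replicate 3. The log2 fold change of Kcnd1 was 0.92 (SE 0.38, adjusted p = 0.0866). Without SNL replicate 3 it was 1.25 and passed (adjusted p = 0.0115), and without SNL plus UNC0638 replicate 1 it was 0.75 (adjusted p = 0.230).

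Among the KChIPs, Kcnip4 stood at 278, 134.6 and 107 in SNL plus UNC0638, against 17.9 to 56.3 in SNL (log2 fold change 2.52, SE 0.42, adjusted p = 0.00203). Kcnip2 stood at 1043, 591 and 482 with UNC0638, against 110.0 to 269.6 in SNL (log2 fold change 2.12, SE 0.31, adjusted p = 0.00124, the smallest of the 9). Kcnip3 stood at 489.7, 257 and 221 with UNC0638, against 60.2 to 173 in SNL (log2 fold change 1.73, SE 0.34, adjusted p = 0.00468). Without replicate 1 the log2 fold changes of these 3 were 2.12, 1.80 and 1.39, and each call held (adjusted p 0.00415 to 0.0182).

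Kcnip1 was the only KChIP gene that was not called in this comparison. It stood at 405, 219.7 and 253 in SNL plus UNC0638, against 196, 222, 244 and 176 in SNL. Replicate 1 lay above SNL, replicate 2 lay within it and replicate 3 was just above it. The log2 fold change was 0.44 (SE 0.19, adjusted p = 0.106), and 0.18 without replicate 1 (adjusted p = 0.416). Whether it differs from the change of the other KChIPs was not tested. Within libraries, the ratio of Kcnip1 to Kcnip2 was 0.389, 0.372 and 0.524 in SNL plus UNC0638, against 0.905 to 1.78 in SNL.

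Of the DPP genes, Dpp10 stood at 1891, 902 and 991 in SNL plus UNC0638, against 105 to 451 in SNL (log2 fold change 2.84, SE 0.45, adjusted p = 0.00158). It had the largest log2 fold change of the 9 in this comparison as well, and 103 tested genes had a larger one. Without replicate 1 it was 2.51 (adjusted p = 0.00731). Dpp6 stood at 3301, 1764 and 1743 with UNC0638, against 668 to 1642 in SNL (log2 fold change 1.19, SE 0.30, adjusted p = 0.0131). Replicates 2 and 3 of Dpp6 lay just above SNL replicate 3, and without replicate 1 the log2 fold change was 0.89 (adjusted p = 0.0499).

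An alternative fit, with 1 more coefficient shared by the third replicates of SNL and Sham and by all SNL plus UNC0638 libraries, left 4 of the 7 calls: Kcnd3, Kcnip2, Kcnip4 and Dpp10. In that fit Kcnd2, Kcnip3 and Dpp6 missed the threshold, at log2 fold changes of 0.86, 1.31 and 0.82 (adjusted p 0.205, 0.0538 and 0.138), and the log2 fold change of Kcnd1 was 0.12. All SNL plus UNC0638 libraries carry the coefficient, so that only the third replicates of SNL and Sham set its size. SNL replicate 3 was the highest SNL library for 9 of 9 members. Whether the coefficient stands for anything that these libraries share was not tested.

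Treated, ligated ganglia were also set against Sham, to show which genes of the complex still differed from control. Lower levels were called for 5 of the 9, Kcnip1, Kcnip2, Kcnip3, Kcnip4 and Dpp6, where 26.0% of all tested genes were called lower, 25.5% higher and 51.5% in either direction. This comparison shares its SNL plus UNC0638 libraries with the last one and its Sham libraries with the first. All 9 log2 fold changes were below 0, with a median of -0.96, against -0.01 over all tested genes. The groups did not overlap for 4 members, Kcnip1, Kcnip3, Dpp6 and Dpp10, and 24.9% of tested genes were lower and 23.4% higher without overlap.

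The 3 pore genes were not called. Their log2 fold changes were -0.33 for Kcnd1 (SE 0.38, adjusted p = 0.489), -0.80 for Kcnd2 (SE 0.40, adjusted p = 0.114) and -0.43 for Kcnd3 (SE 0.40, adjusted p = 0.381). SNL plus UNC0638 overlapped with Sham in all 3. Replicate 1 of Kcnd3 lay between the Sham libraries, and replicates 2 and 3, at 1167 and 1011, lay below the lowest of them at 1538. Without SNL plus UNC0638 replicate 1 the 3 were not called either, at -0.50, -0.998 and -0.77. In the fit with the shared coefficient each was called lower, at -1.13 for Kcnd1 (adjusted p = 0.013), -1.50 for Kcnd2 (adjusted p = 0.0141) and -1.10 for Kcnd3 (adjusted p = 0.0459). The third replicates of SNL and Sham alone set the shift of SNL plus UNC0638 in that fit, which thus cannot decide whether these genes differ from Sham.

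The KChIP with the smallest p was Kcnip1, at 293 ± 99.0 in SNL plus UNC0638 and 551 ± 46.2 in Sham (SD, n = 3 and n = 4). Its log2 fold change was -0.96 (SE 0.19, adjusted p = 0.00193), and -1.22 without SNL plus UNC0638 replicate 1. Kcnip3 (-1.18, adjusted p = 0.0138), Kcnip4 (-1.15, adjusted p = 0.0364) and Kcnip2 (-0.81, adjusted p = 0.0461) were lower too. Of the DPP genes, Dpp6 passed (-0.98, SE 0.30, adjusted p = 0.0157) and Dpp10 did not (-1.10, SE 0.45, adjusted p = 0.0557). Without replicate 1 the same 5 genes and Dpp10 were called, with Dpp10 at -1.44 (adjusted p = 0.0278), Kcnip3 at -1.52, Kcnip4 at -1.55, Kcnip2 at -1.13 and Dpp6 at -1.29. Only the Kcnip1 call held when any single library was left out. Without SNL plus UNC0638 replicate 2, and likewise without replicate 3, it was the 1 call that remained.

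Markers of cell types also differed between the groups, and not all in the direction of the members. The summed level of 12 pan-neuronal genes was 92769 to 106935 in SNL plus UNC0638, 169715 to 212887 in SNL and 157265 to 181201 in Sham. Tubb3 and Stmn2, of the neuronal cytoskeleton, and Gap43, of regrowing axons, were called higher in SNL than in Sham, at log2 fold changes of 0.49, 0.52 and 1.91. These 3 summed to 45043 to 52628 in SNL plus UNC0638, 102529 to 133778 in SNL and 69903 to 86818 in Sham. The other 9 summed to 44312 to 58071, 64409 to 79108 and 87361 to 97022 in the same groups, lower in SNL than in Sham. That split was chosen after the values were seen. Taking out genes called higher in SNL itself lowers the sum of SNL against Sham, so that the remaining sum says nothing about the members. Both sums were lowest in SNL plus UNC0638. By gene, the pan-neuronal list had 3 higher and 7 lower of 12 in SNL against Sham, with Rbfox3 (NeuN) at -1.95 and Snap25, of the synaptic release machinery, at -1.78. In SNL plus UNC0638 against SNL it had 1 higher and 5 lower, and 0 and 5 without replicate 1. These counts and those of the lists that follow stand beside 24.8% higher and 23.4% lower of all tested genes in SNL against Sham, and 13.5% higher and 14.3% lower in SNL plus UNC0638 against SNL. For lists counted in SNL plus UNC0638 against Sham the shares were 25.5% higher and 26.0% lower.

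Nociceptor genes moved as the members did. Their list gave 0 higher and 8 lower of 8 in SNL against Sham, with a median log2 fold change of -2.70, and 4 higher and 0 lower in SNL plus UNC0638 against SNL, with or without replicate 1. Their summed level was 20989 to 41747 in SNL plus UNC0638, 7551 to 17764 in SNL and 47383 to 59948 in Sham. Large-diameter neuron genes gave 0 higher and 4 lower of 7 in SNL against Sham, and 2 higher and 0 lower with UNC0638 against SNL, of which 0 remained without replicate 1. Macrophage genes gave 7 higher and 0 lower of 8 in SNL against Sham and 1 higher and 0 lower with UNC0638. Fibroblast genes gave 6 higher of 6 in SNL against Sham, and 0 higher and 3 lower with UNC0638, but 1 higher and 1 lower without replicate 1. The part of these cell types in the results was not tested.

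Other lists gave smaller counts. Satellite glia genes had 2 higher and 2 lower of 5 in SNL against Sham and 1 each way with UNC0638, or 0 higher and 1 lower without replicate 1. Schwann cell genes had 2 higher and 0 lower of 6, and 0 higher and 1 lower with UNC0638. Endothelial genes had 2 higher of 3, and 0 called with UNC0638, with Cldn5 at 0 in all libraries. Genes of central oligodendrocytes and astrocytes had 0 called of 2 in either comparison, with sums of 31.2 to 119 in all libraries. Of 7 tested skeletal muscle genes, 1 was called in either comparison, Pvalb, which is also in the large-diameter neuron list (-4.89 in SNL against Sham, 3.33 with UNC0638 against SNL). Without SNL plus UNC0638 replicate 1 Pvalb was not called against SNL (2.49, adjusted p = 0.101). Cardiac muscle genes, which bear on Kcnip2 and Kcnd3 as both are used in the heart, summed to 181 to 1154 in SNL plus UNC0638, 64.0 to 124 in SNL and 117 to 147 in Sham. Of 3 tested, 0 were higher and 1 lower in SNL against Sham, and 1 was higher and 0 lower with UNC0638 against SNL. The latter was Myh6, a cardiac myosin gene. Myh6 stood at 179, 142 and 152 in SNL plus UNC0638, against 10.03 to 18.8 in SNL (log2 fold change 3.55, adjusted p = 8.42e-05). Tnnt2 (-1.26, adjusted p = 0.0786) and Nppa (-0.12, adjusted p = 0.824) were not called there. Myh7 stood at 914 in SNL plus UNC0638 replicate 1, the library with the highest skeletal muscle sum, and at no more than 5.47 elsewhere. The part of cardiac genes in the values of Kcnd3 and Kcnip2 was not tested.

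**Figure D4:**
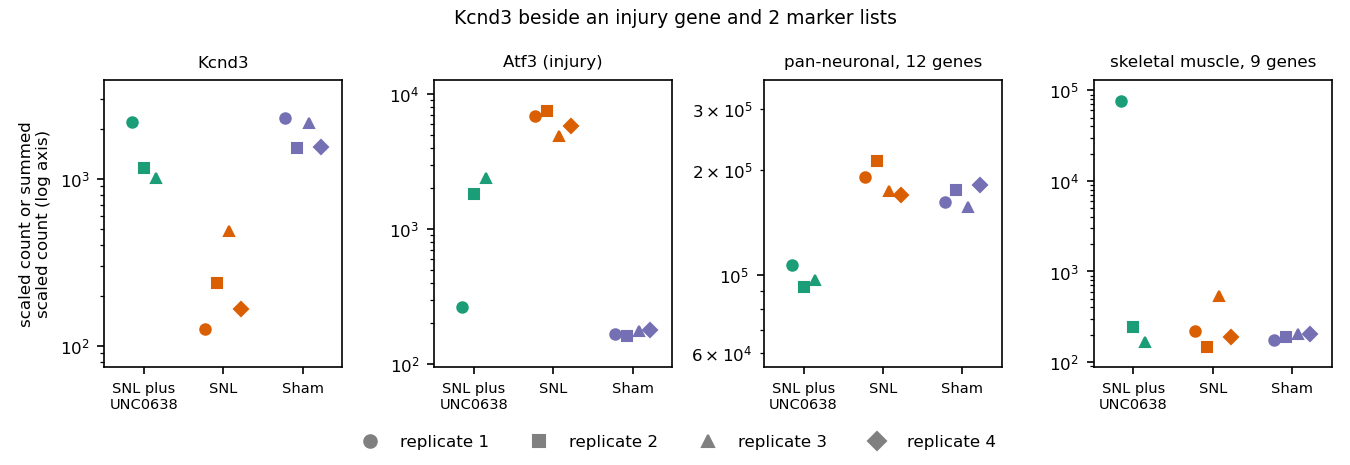
Scaled counts of Kcnd3 and Atf3 and summed scaled counts of 12 pan-neuronal genes and 9 skeletal muscle genes that are in no other list (log axes), in each SNL plus UNC0638, SNL and Sham library. SNL plus UNC0638 replicate 1 has the highest Kcnd3 of its group (2180.3), the lowest Atf3 (265) and a skeletal muscle sum of 76646.

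The enzymes that UNC0638 inhibits showed no difference in RNA between SNL plus UNC0638 and SNL that passed the test, with log2 fold changes of 0.11 for Ehmt2, which encodes G9a (SE 0.17, adjusted p = 0.661), and -0.09 for Ehmt1, which encodes GLP (SE 0.11, adjusted p = 0.549). Both were called higher in SNL than in Sham (Ehmt1 0.62, adjusted p = 0.000493, and Ehmt2 0.46, adjusted p = 0.0321), and in SNL plus UNC0638 than in Sham (0.53, adjusted p = 0.00191, and 0.57, adjusted p = 0.0166). Atf3, a transcription factor of injured neurons, stood at 265, 1802 and 2393 in SNL plus UNC0638, against 4914 to 7460.02 in SNL (log2 fold change -2.56, SE 0.56, adjusted p = 0.00742). The lowest Atf3 value was that of replicate 1, the SNL plus UNC0638 library in which all 9 members were highest. Against Sham, where Atf3 stood at 160.2 to 178, both ligated groups were higher.

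Other genes that give or modulate A-type current were counted from a list. Of 5 tested, 4 were lower and 0 higher in SNL against Sham, and 4 were higher and 0 lower with UNC0638 against SNL. Without SNL plus UNC0638 replicate 1 only Kcna4 remained called against SNL (1.98, adjusted p = 0.00401). Kcna4 encodes Kv1.4, the A-type channel of the Kv1 family, and stood at 563 ± 225 in SNL plus UNC0638, 119.6 ± 65.6 in SNL and 906 ± 36.3 in Sham. Kcnab1, a Kv beta subunit that speeds inactivation of Kv1 channels, stood at 1529 ± 528, 703 ± 189 and 3848 ± 922 in these groups. Kcnab2, another beta subunit, had log2 fold changes of -1.74 for SNL against Sham and 1.10 with UNC0638 against SNL, the second not called without replicate 1 (0.79, adjusted p = 0.152). Kcnab1 against SNL was at 0.84 without it (adjusted p = 0.0514). In SNL plus UNC0638 against Sham, 1 of the 5 was called, Kcnab1, lower (-1.35, adjusted p = 0.00207). Without replicate 1 that comparison had 0 higher and 2 lower, Kcnab1 and Kcna4 (-1.06, adjusted p = 0.0204).

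Genes of proteins that bind or modify Kv4 channels were called at a share near that of all tested genes. Of 13 tested, 2 were higher and 5 lower in SNL against Sham, 3 higher and 2 lower with UNC0638 against SNL, and 3 higher and 5 lower with UNC0638 against Sham, where 48.2%, 27.8% and 51.5% of all tested genes were called. Without SNL plus UNC0638 replicate 1 the last 2 pairs of counts were 2 and 2, and 2 and 6. Flna, whose product filamin A links Kv4.2 to actin, rose in SNL (log2 fold change 1.33, adjusted p = 0.00022), as did the scaffold gene Dlg1 (0.61, adjusted p = 0.00366). The kinase genes Camk2a (-2.02, adjusted p = 0.00431) and Prkaca (-0.82, adjusted p = 0.00663) fell in SNL. With UNC0638, the kinase anchor gene Akap5 stood at 41.2 ± 6.81, against 7.09 ± 2.81 in SNL (log2 fold change 2.44, adjusted p = 0.00278), and 17.3 ± 8.71 in Sham. Akap5 was also higher with UNC0638 than in Sham (1.34, adjusted p = 0.0232), a call that was lost without replicate 1 (1.24, adjusted p = 0.0614). The potassium channel subunit gene Kcne4 rose with UNC0638 against SNL (1.08, adjusted p = 0.00747), and the calcium sensor gene Ncs1 fell (-0.53, adjusted p = 0.014).

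The relatives of the KChIPs and of the DPP proteins were counted in the same way. Of 5 tested neuronal calcium sensor genes, 4 were lower and 0 higher in SNL against Sham, 2 higher and 1 lower with UNC0638 against SNL, and 0 higher and 3 lower with UNC0638 against Sham. Without SNL plus UNC0638 replicate 1 the last 2 pairs of counts were 1 and 1, and 0 and 5. Vsnl1, which encodes visinin-like protein 1, stood at 904 ± 437 in SNL plus UNC0638, 306 ± 234 in SNL and 2684 ± 435 in Sham. Hpca, which encodes hippocalcin, had log2 fold changes of -2.86 for SNL against Sham and 2.22 with UNC0638 against SNL. Of 4 tested peptidase relatives of the DPP proteins, 2 were higher and 1 lower in SNL against Sham. Fap (2.22, adjusted p = 0.000521) and Dpp4 (2.51, adjusted p = 0.00266) were higher in SNL. Prep was lower (-0.35, adjusted p = 0.0384), and Dpp8 was not called (-0.17, adjusted p = 0.200). With UNC0638 against SNL, Fap was lower (-1.43, adjusted p = 0.0191) and Dpp4 did not pass (-1.51, adjusted p = 0.0692). Without SNL plus UNC0638 replicate 1 Fap did not pass either (-1.005, adjusted p = 0.0717), and both were then called higher than in Sham (Fap 1.22, adjusted p = 0.0162, and Dpp4 1.597, adjusted p = 0.0344).

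The genes whose profile over the 11 libraries was most like that of a pore gene were found by the root mean square difference of log2 values centred at each gene's mean. For Kcnd3 they were Scn10a (0.16), Kirrel3 (0.25) and Unc13c (0.25). Scn10a encodes the nociceptor sodium channel Nav1.8 and stood at 9527 ± 3726 in SNL plus UNC0638, 1744 ± 1408 in SNL and 11262 ± 2454 in Sham. For Kcnd1 they were Tmem132e (0.13), Ryr2 (0.15), a calcium release channel gene, and Lhfpl4 (0.15). For Kcnd2, they were Hpse (0.24), the heparanase gene, Fam5b (0.28) and Nog (0.29), the gene of the BMP antagonist noggin. Of the members, Kcnip2 was the nearest to Kcnd3 (0.35), Dpp6 to Kcnd2 (0.42) and Kcnip1 to Kcnd1 (0.48). Among the 12086 genes compared, these members ranked only 22, 42 and 710 in nearness to their pore gene. These differences describe 11 libraries that share 3 group means.

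The identity of some counts is uncertain. In the RefSeq annotation of GRCr8, a later build than that of the data, 6 of the 9 members overlap other annotated genes, and the labels do not say whether counting used strand. A protein-coding gene named Kcnd2l1 lies within Kcnd2 there, and reads shared between them could be split. Kcnmb1, which encodes a calcium-activated channel subunit, lies within Kcnip1 and had values of 1.55 to 14.4 in all libraries.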

How the data were processed

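Single reads of 50 bases were aligned by TopHat to build rn4, per the design text of the series, and the submitters' processing notes name TopHat2 2.0.9 and Cuffdiff 2.1.1. Libraries were stranded total RNA with ribosomal RNA removed, and RNA was extracted with either of a pair of reagents, per the labels' protocols. The labels do not say which library had which reagent, so that reagent and group cannot be told apart here. The sources used here name no annotation or counting rule. The deposited values are a signal per gene, which by its steps appears to be counts that the authors divided by a factor per library: 98.9% to 99.2% of the low values of a library were whole multiples of 1 step (within 0.01 steps). The step was taken as 1 read to estimate depth. These are not raw counts, so that no count test was the main result.

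The test was limma 3.58.1 (R 4.3.3, statmod 1.5.0) on log2(value + 1), fitted to all 11 libraries with group means, eBayes with trend and robust estimates, two-sided, with Benjamini-Hochberg adjustment over 12087 genes and a threshold of 0.05. Log2 fold changes are on that scale, and folds are ratios of group means of scaled counts. The fit was also run on simulated counts with known changes and 1 dispersion for all genes and libraries. That does not show how it performs with the unequal spreads of these groups. The members and lists were chosen with earlier results of these data known. The genes named are the 9 members, up to 4 called members per pathway list, the 3 nearest profiles per pore gene, and Atf3, Ehmt1 and Ehmt2. Rbfox3, Snap25, Tubb3, Stmn2, Gap43, Cldn5, Pvalb, Myh6, Myh7, Tnnt2, Nppa, Dpp8, Kcnmb1 and Kcnd2l1 were named after their values were seen. List genes without a row in the table are not analysed here, and some genes of the lists are not reported by name.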

Additional observations from a re-analysis of the deposited data

Results flagged for a closer look

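The Dpp10 level in SNL replicate 3 was 451, far from the other SNL libraries at 105 to 143. It was flagged because the gap to the nearest library was 0.892 of the range of the group, above Dixon's critical value for 4 libraries. Of 18 groups of 4 libraries examined over the 9 genes, 1 was flagged, where chance flags about 1 in 20. Dpp10 remained called without this library in SNL against Sham (log2 fold change -4.42) and in SNL plus UNC0638 against SNL (3.32).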

How the results depend on the processing

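Over 23 alternatives, the 9 genes kept their direction in all 3 comparisons. Calls were unchanged in 207 of 207 values for SNL against Sham, 200 of 207 for SNL plus UNC0638 against SNL (4 calls lost, 3 gained) and 178 of 207 for SNL plus UNC0638 against Sham (19 lost, 10 gained). The cause of these changes was not tested. The coefficient shared by the third SNL and Sham replicates and the SNL plus UNC0638 group gave 1289 called genes, against 3359, and 4 members, against 7, for SNL plus UNC0638 against SNL, and 9 members, against 5, for SNL plus UNC0638 against Sham. Leaving out the Sham and SNL libraries numbered 3, chosen after seeing the data, gave 5348 genes for SNL plus UNC0638 against SNL. With 1 library left out, the called genes were 4806 to 6513, 2080 to 4470 and 4672 to 6957 in the 3 comparisons in the order above, and the members 9 in each fit, 6 to 8 and 1 to 6. The low of 2080 was without SNL replicate 1, and 2100 remained without SNL plus UNC0638 replicate 2. For SNL plus UNC0638 against Sham, 3 members remained without Sham replicate 1, 2 or 4, and 1 without SNL plus UNC0638 replicate 2 or 3.

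Whether the replicate numbers pair the libraries could not be decided from so few pairs. Deviations of same-numbered libraries correlated at 0.00437 to 0.431 (Sham and SNL, 4 pairs over genes), with the third replicates highest. They correlated at -0.446 to -0.0849 for SNL and SNL plus UNC0638, and at -0.244 to 0.0113 for Sham and SNL plus UNC0638. With the replicate number as a block, 2129 genes were called for SNL plus UNC0638 against SNL, and 3 members for SNL plus UNC0638 against Sham. The limma-voom fit on estimated reads also changed the scaling, as it used library totals in place of the authors' factors. It moved the median log2 fold change of all genes to 0.13 for SNL plus UNC0638 against SNL and 0.19 for SNL plus UNC0638 against Sham. It called 3311 higher and 1529 lower in the first of these, against 1632 and 1727, and 4828 higher and 2861 lower in the second, against 3083 and 3138. Planned edgeR and DESeq2 fits on reads recovered from the steps were not run, since a few values of each library were fractions of the step. Depth limits Kcnd2 most, at 5 to 39 estimated reads.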

Other observations

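Per 1000 scaled counts of the summed pan-neuronal genes, Kcnip1 stood at 3.79, 2.37 and 2.61 in SNL plus UNC0638, against 1.02 to 1.396 in SNL, so that on this scale the groups did not overlap. In Sham it stood at 2.73 to 3.79. Kcnd1 stood at 16.0 to 21.9 in SNL plus UNC0638, 3.01 to 10.9 in SNL and 9.96 to 22.7 in Sham on the same scale. The denominator was itself lower in SNL plus UNC0638 and holds 3 genes that were higher in SNL. Over the other 9 genes, Kcnip1 stood at 4.60 to 6.98 in SNL plus UNC0638, 2.73 to 3.38 in SNL and 5.24 to 6.83 in Sham. Both denominators were lowest in SNL plus UNC0638, which by itself raises the ratios there. The ratios thus cannot show whether Kcnip1 or Kcnd1 differed with UNC0638. They were chosen after the values were seen and were not tested.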
